A study of Bos taurus with 4 samples.

Results

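The genes described here encode the machinery that fuses a secretory vesicle with the cell membrane when calcium enters. They were measured in cattle chromaffin cells given the neuropeptide PACAP (pituitary adenylate cyclase-activating polypeptide) and in control cells. Members were chosen by the mouse gene symbol that the array platform's annotation gives to a clone: the SNAP-25 family, the syntaxins and syntaxin-binding proteins, the vesicle-associated membrane proteins (Vamp), Nsf and its adaptors Napa, Napb and Napg, the complexins (Cplx), the synaptotagmins (Syt and Sytl), the Rims, Unc13 and Cadps families, the Sv2 family and Syp. The annotation held 116 such entries for 55 genes. Of these, 115 clones of 54 genes were placed on a spot, among 35960 library clones in all, and the single Stx18 entry was not. All 115 clones passed the filter on low signal, 110 with a value on 4 arrays and 5 with a value on 3.

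The PACAP cells received 100 ng/ml of the peptide for 6 h at 37 C in culture. Control chromaffin cells with the same repeat number were their reference, and the labels name no vehicle. PACAP RNA carried the dye Cy5 and control RNA the dye Cy3 on each of 4 arrays, 1 array for each of 4 biological repeats. The dyes were the same way round on every array, and any preference of a spot for Cy5 or Cy3 cannot be told apart from the treatment. The labels call the cell type chromaffin cells, enter the tissue as brain, and do not say whether the repeats came from separate animals, so the p-values measure the spread between these 4 arrays only. The array carried mouse cDNA clones. Of the 54 gene symbols, 52 also exist as cattle gene symbols in RefSeq (ARS-UCD2.0), the exceptions being the older mouse names Stx4a and Stx5a. This compares names only, and whether a mouse clone binds the cattle transcript of the same name was not tested.

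In chromaffin cells of the adrenal medulla, catecholamines, chromogranins and neuropeptides are stored in dense-core granules and released by calcium-triggered exocytosis. A vesicle SNARE on the granule zips together with a syntaxin and a member of the SNAP-25 family on the cell membrane, and synaptotagmins bind calcium and start the fusion. Complexins clamp and promote that step, the Unc13, Cadps and Rims proteins make granules ready for release, and the ATPase Nsf with its SNAP adaptors pulls used SNARE complexes apart. PACAP is a transmitter of the splanchnic nerve onto these cells and is known for evoking prolonged catecholamine secretion.

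Values are the normalised log2 ratio of PACAP over control, as mean ± SD over 4 arrays unless another n is given, so that a positive value means more signal in PACAP RNA. Intensities are linear signals above local background before normalisation. Repeat 4 had the stronger control channel throughout, with a median over the exocytosis clones of 250 in PACAP RNA and 576 in control RNA, against 420 and 311 on repeat 1, 257 and 193 on repeat 2, and 116 and 127 on repeat 3. The intensities of a clone are therefore to be read within an array and not as its ratio. A signal counted as above background where it exceeded 2 SD of the local background. By that measure PACAP RNA was above background on all 4 arrays for 101 of 115 clones and on 3 arrays for 14, whereas control RNA was above it on all 4 for 30, on 3 for 36, on 2 for 35, on 1 for 13 and on none for 1 clone. The shares above background on all 4 arrays were 87.8% in PACAP RNA and 26.1% in control RNA for the members, against 90.7% and 31.3% for all clones tested. Of 17 marker genes of chromaffin cells, 12 were measured. This and the following marker lists use only the clone of highest mean brightness of each gene, whereas shares of all clones include dimmer ones. All 12 were above background in PACAP RNA on 4 arrays and 9 of them in control RNA, among them Th, Ddc, Chga and Chgb. Markers of other cells of the gland were above background on 4 arrays as well, a measure that 90.7% of all clones met in PACAP RNA: 8 of 8 measured genes of the adrenal cortex in PACAP RNA and 4 in control RNA, 9 and 7 of 9 of fibroblasts, 6 and 1 of 6 of endothelium, 5 and 3 of 5 of Schwann and sustentacular cells, 5 and 2 of 6 of leukocytes, and 2 and 1 of 2 of erythrocytes. Their part in the ratios below was not tested. Of the erythrocyte genes, the clone of Hbb-b1 is titled myosin Vb.

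Repeat 4 stood apart from the others. Over the 110 member clones with a value on every array, Pearson's r between arrays was 0.310 for repeats 1 and 2, 0.427 for 1 and 3, and 0.424 for 2 and 3, while it was 0.054, 0.041 and 0.037 for repeats 1, 2 and 3 with repeat 4. Over all clones the same values were 0.219, 0.291 and 0.372, and -0.011, -0.125 and -0.002. These are descriptions across clones, which share arrays, dyes and spot areas. The spread over the member clones was also the smallest on repeat 4, with an SD of 0.38, against 0.54, 0.82 and 1.12 on repeats 1 to 3.

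**Figure D1:**
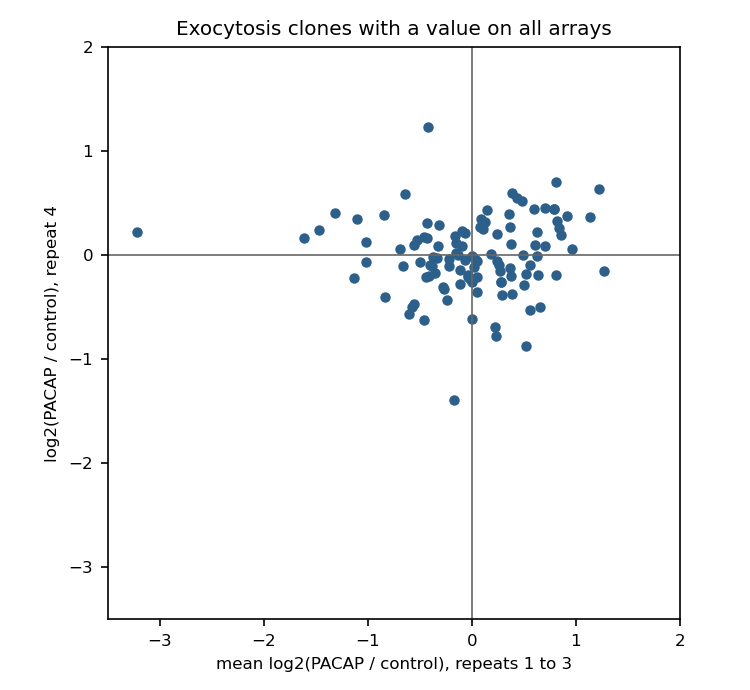
Log2(PACAP / control) on repeat 4 (vertical axis) against the mean over repeats 1 to 3 (horizontal axis) for the 110 exocytosis clones with a value on all arrays; each point is 1 clone and both axes have the same scale. The points form a horizontal band, with a Pearson r of repeat 4 with each other repeat of 0.054 or less.

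No clone of the exocytosis machinery passed the threshold for a difference between PACAP and control. With limma and Benjamini-Hochberg adjustment over all 35110 clones tested, 0 of 115 had an adjusted p under 0.05, against 0.0% of all clones, and the lowest adjusted p was 0.454 both among the members and over the array. At an unadjusted p under 0.05, 9 member clones (7.83%) were higher with PACAP, against 3.92% of all clones tested, and 6 (5.22%) were lower, against 6.46%. The 9 were clones of Syt13, Cplx4, Cplx2, Stx3, Cadps2, Syt9, Syt16, Rims2 and Unc13a, and the 6 were clones of Cplx1, Unc13c, Stx3, Napb, Cadps2 and Unc13a, so that Stx3, Cadps2 and Unc13a had clones on both sides. With a value on every array, 19 of 110 clones (17.3%) were higher on all 4, against 10.1% of all such clones, and 9 (8.18%) were lower on all 4, against 8.71%. Without repeat 4, 11 member clones were higher and 10 lower at an unadjusted p under 0.05, against 4.87% and 9.79% of all clones, and the adjusted count was again 0. Without repeat 2 the counts were 2 higher (1.74%) and 3 lower (2.61%), against 2.46% and 3.64% of all clones, so that the share of higher clones was no longer above that of the array. Without repeat 3 they were 4 (3.48%) and 2 (1.74%), against 1.99% and 3.23%. The median of the mean ratios was -0.01 over the members, 55 higher and 60 lower, and -0.01 over all clones tested. In whole-culture RNA, a change in the share of a cell type and a change in RNA per cell cannot be told apart. Intervals bound how much the tests could miss: the 95% interval of the mean lay within 1 log2 unit (2-fold) in either direction for 60 of 115 member clones (52.2%), and for 54.3% of all clones. For the other members a 2-fold difference was within the interval.

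**Figure D2:**
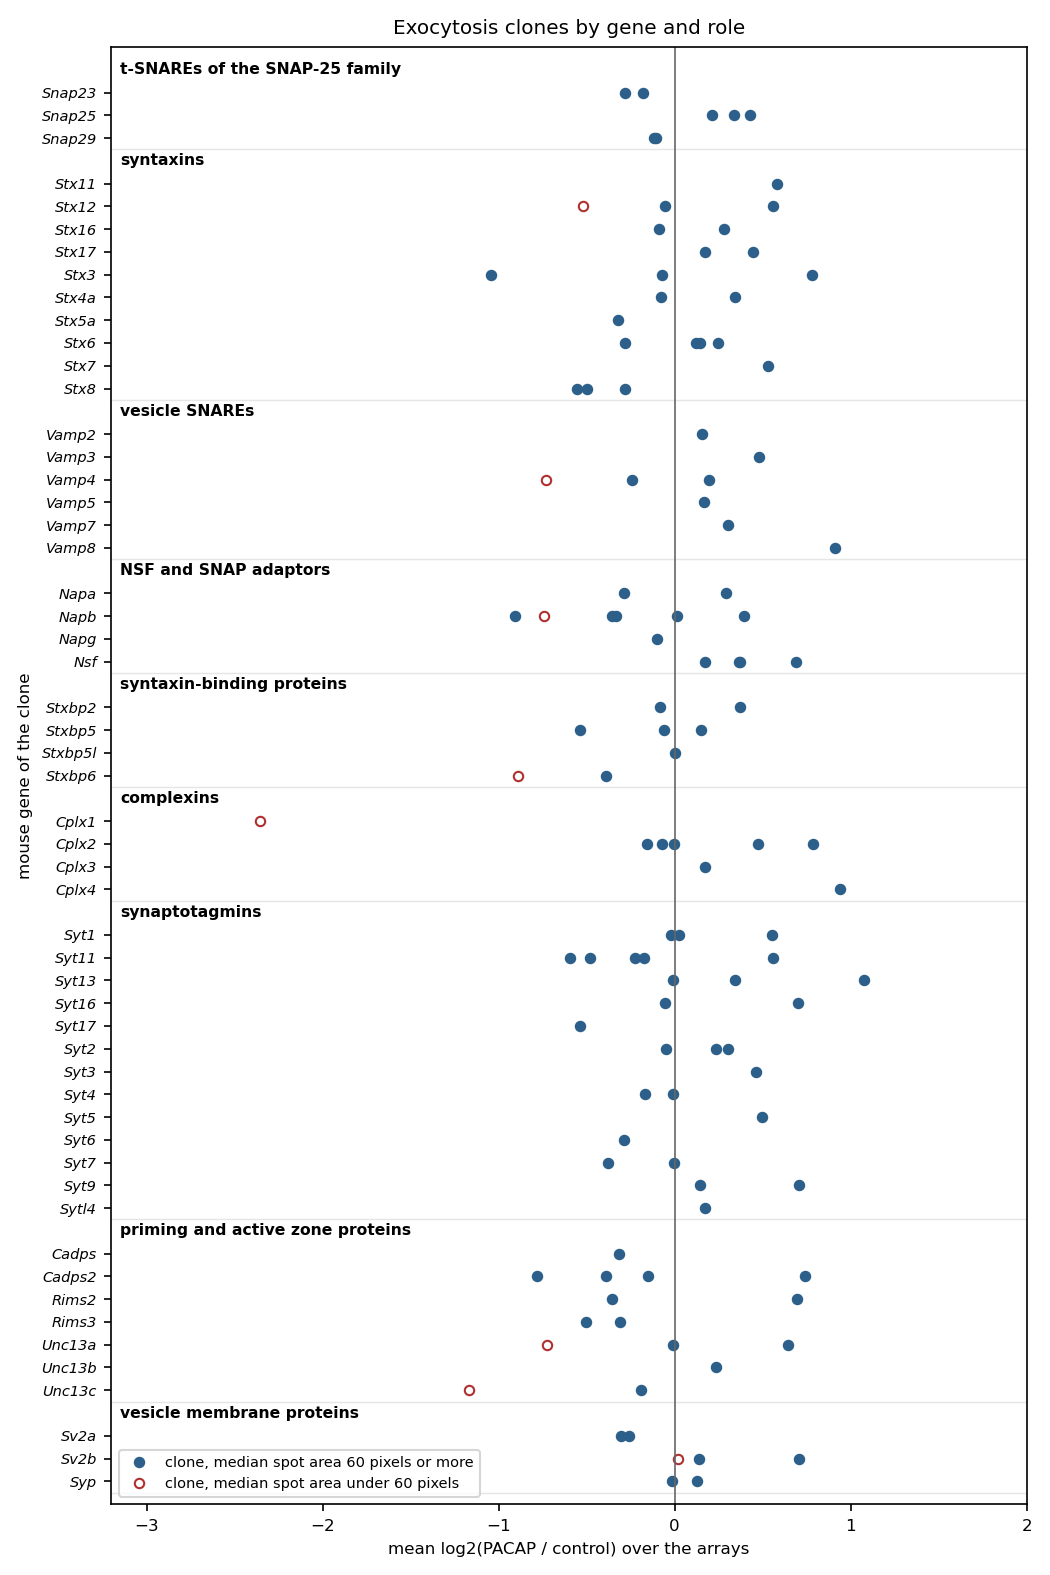
Mean log2(PACAP / control) over the arrays (horizontal axis) of each of the 115 exocytosis clones, by mouse gene and role (vertical axis); each point is 1 clone, and open red circles are clones with a median spot area under 60 pixels. Of the 34 genes with several clones, 14 have all points on 1 side of 0, the 4 Nsf clones all lie above it, and the Cplx1 clone lies lowest at -2.36.

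The SNAP-25 family gives the cell membrane its second SNARE, and Snap25 is the member used by neurons and chromaffin cells. Its 3 clones had positive means. Clone AI848368 had intensities of 1817, 888, 540 and 270.5 in PACAP RNA of repeats 1 to 4, against 760.1, 211, 225 and 698 in control RNA. Its normalised ratios were 0.33, 1.12, 0.47 and -0.19, with a mean of 0.43 ± 0.54. Clone BE950625 had ratios of 0.13, 0.44, -0.14 and 0.43 (0.21 ± 0.28), and clone AI841525 had 0.88, 1.09 and -0.95 on repeats 2 to 4 (0.34 ± 1.12, n = 3). Of the 11 values of the gene, 8 were positive, and the negative ones were on repeat 3 in 1 clone and on repeat 4 in the other clones. The average over its clones was 0.32 ± 0.44, with a limma adjusted p of 0.629, so the shift was smaller than the spread between arrays. Snap23, the family member of non-neuronal cells, had a mean of -0.28 ± 0.38 in clone AU016336 and of -0.18 ± 0.10 (n = 3) in clone AU014908. Snap29, which acts on internal membranes, had -0.12 ± 0.49 and -0.11 ± 1.12. None of the 7 clones of the family had an unadjusted p under 0.05, against 3.92% higher and 6.46% lower of all clones tested. For so few clones, a count of 0 is near those shares. Of the clones with a value on every array, none was on 1 side of 0 on all 4. Snap23 clone AU014908, with a value on 3 arrays, was lower on each of them.

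Of the ATPase Nsf, all 4 clones had positive means, and each is titled as N-ethylmaleimide sensitive fusion protein in the scanner tables. Clone AW537219 had intensities of 419, 752, 262 and 658 in PACAP RNA, against 284, 224, 86.5 and 1327 in control RNA. Its ratios were 0.08, 0.84, 1.65 and 0.19, with a mean of 0.69 ± 0.72 and an adjusted p of 0.482 by limma. Clone AI836793 had ratios of 0.50, 0.43, 0.13 and 0.39, which gives 0.36 ± 0.16, the narrowest spread of the 4. These 2 clones were higher with PACAP on every array. Clone AI846861 had 0.32, 1.13, 0.53 and -0.50 (0.37 ± 0.67), and clone C76444 had 0.21, 0.34, -0.17 and 0.32 (0.17 ± 0.24). In all, 14 of the 16 Nsf values were positive. The average over the clones was 0.28, 0.69, 0.53 and 0.10 on repeats 1 to 4, or 0.40 ± 0.26, with an adjusted p of 0.537 by limma. Control signal was above background on 2 arrays for clones AW537219 and AI846861, on 1 for AI836793 and on 3 for C76444.

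**Figure D3:**
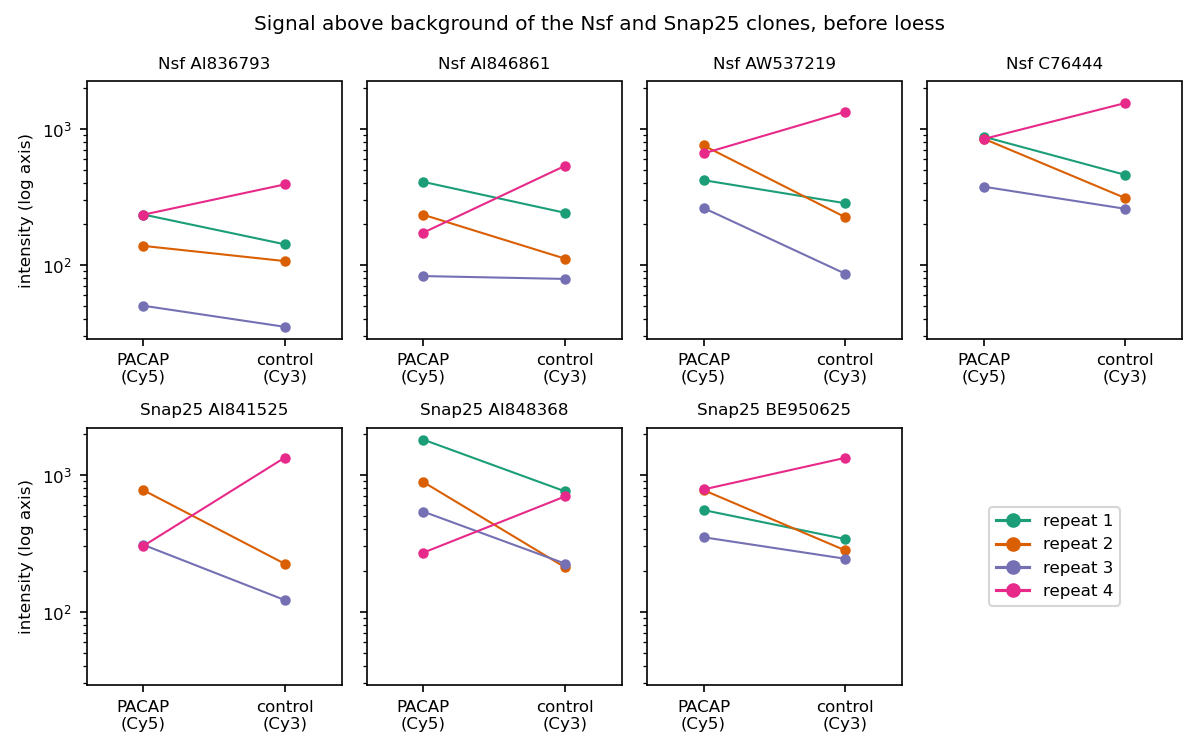
Signal above local background (vertical axis, log scale) of the 4 Nsf clones (top) and 3 Snap25 clones (bottom) in PACAP RNA (Cy5, left of each panel) and control RNA (Cy3, right), before loess normalisation; each line is 1 array. Every drawn line of repeats 1 to 3 is higher at PACAP than at control, while repeat 4 has the stronger control channel in all 7 clones, as it has over the array.

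The SNAP adaptors, which recruit Nsf to the SNARE complex, were mixed. Napa (alpha-SNAP) had 1 clone lower on all 4 arrays, AW537800 with -0.44, -0.20, -0.19 and -0.31 (-0.29 ± 0.11), and 1 clone with a positive mean, AI838341 with 0.29 ± 1.08. The sign of clone AW537800 turned to 0.081 with median centring in place of loess and to 0.37 from the deposited log2 ratios. Napb (beta-SNAP, the neuronal form) was covered by 6 clones with means of -0.91 to 0.39, 4 of them negative, and 1 of the positive ones, AW490990 at 0.014, is titled as similar to a serine/threonine-protein kinase. Its clone AI840240 had intensities of 214, 108, 47.3 and 144 in PACAP RNA, against 239.6, 189, 297 and 361 in control RNA. The ratios were -0.42, -0.69, -2.30 and -0.22, a mean of -0.91 ± 0.95 with an adjusted p of 0.467 by limma. That clone was lower on all 4 arrays, repeat 3 far more than the others. Napg (gamma-SNAP) had -0.10 ± 0.41.

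Among the syntaxins, the membrane anchors of the SNARE complex, 22 clones of 10 genes had a median of 0.03, with 11 higher and 11 lower. Stx3, a syntaxin of the cell membrane in epithelia and ribbon synapses, held both the smallest p of a positive and the smallest p of a negative ratio among them. Clone AW552070 had intensities of 420.1, 236, 111 and 226 in PACAP RNA, against 208, 113, 77.9 and 380.4 in control RNA. Its ratios were 0.62, 1.11, 1.01 and 0.37 (0.78 ± 0.34, limma adjusted p = 0.454), with control signal above background on 2 arrays. Clone C77959 had 155, 52.3, 73.5 and 116 in PACAP RNA, against 229, 231, 236 and 226 in control RNA. Its ratios were -0.79, -2.16, -1.46 and 0.24 (-1.04 ± 1.02, limma adjusted p = 0.454). The third Stx3 clone, AW536415, had -0.07 ± 0.25, with an interval of -0.62 to 0.48. All 3 are titled syntaxin 3, so clones of this gene pointed in opposite directions and the average over the gene carries no direction.

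The 3 clones of Stx8, a syntaxin of endosomes, all had negative means, -0.55 ± 1.22, -0.50 ± 0.66 and -0.28 ± 1.09, but each was positive on at least 1 array. Stx4a, a syntaxin of the cell membrane in most cells, had -0.08 ± 0.21 and 0.34 ± 0.30, the second clone higher on all 4 arrays. Stx12, an endosomal syntaxin, had -0.52 ± 0.32 in clone AI848791, lower on all 4 arrays with a limma adjusted p of 0.489 and a median spot area of 22 pixels, while its other clones had -0.05 ± 0.60 and 0.56 ± 0.38. Stx6, found in the trans-Golgi network and on immature granules, had means of -0.28, 0.12, 0.15 and 0.25 in 4 clones. Stx16, also of the trans-Golgi network, had -0.09 ± 0.18 and 0.28 ± 0.53 (n = 3), the first from a clone titled phospholipid transfer protein. Stx17, known from autophagosomes, had 0.17 ± 0.70 and 0.44 ± 0.42. Of the genes with a single clone, Stx7 of late endosomes had 0.53 ± 0.65, higher on all 4 arrays, Stx11 of immune cells had 0.58 ± 0.70 (n = 3), and Stx5a of the Golgi had -0.32 ± 0.23, lower on all 4. The sign of Stx7 turned to -0.16 and that of Stx5a to 1.81 with the deposited log2 ratios. Stx1a was not analysed here.

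Vesicle SNAREs had a median of 0.18 over 8 clones of 6 genes, 6 higher and 2 lower. Vamp2 (synaptobrevin 2), the main granule SNARE of chromaffin cells, had intensities of 1526, 768, 390.0 and 539.7 in PACAP RNA, against 903, 271, 248 and 977 in control RNA. Its ratios were -0.17, 0.50, -0.06 and 0.35 (0.15 ± 0.32), 2 on each side of 0. The interval of -0.42 to 0.73 in the main fit left out a 2-fold difference, but over the other settings the mean ran from -2.08 to 0.51. Vamp3 (cellubrevin) had ratios of 0.37, 0.54, 0.90 and 0.10 (0.48 ± 0.34), higher on all 4 arrays with an adjusted p of 0.514 by limma, and -0.77 from the deposited log2 ratios. Vamp8, a SNARE of endosomes and of granules in exocrine and blood cells, had the widest spread, with -0.20, 1.33, 2.68 and -0.15 (0.91 ± 1.37). Vamp5 and Vamp7 had 0.17 ± 1.05 and 0.30 ± 0.76. Vamp4, a SNARE of the trans-Golgi network, had 3 clones at -0.73, -0.24 and 0.19, the first from spots of 30.5 pixels and the second from a clone titled phosphatidylethanolamine binding protein. None of the 8 clones had an unadjusted p under 0.05, against 3.92% higher and 6.46% lower of all clones tested. For so few clones, a count of 0 is near those shares. Vamp1 was not analysed here.

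The syntaxin-binding proteins control when a syntaxin may enter the complex. Stxbp2 (Munc18-2), the form of non-neuronal secretory cells, had ratios of 0.13, -0.13, -0.11 and -0.22 in clone AI849049, a mean of -0.08 ± 0.15 with an interval of -0.62 to 0.45. Its other clone, AW557039, had 0.37 ± 0.33. Stxbp5 (tomosyn), an inhibitor of SNARE assembly, had means of -0.54, -0.06 and 0.15, and Stxbp5l, its close relative, 0.00 ± 0.38. Stxbp6 (amisyn), another inhibitor, had -0.39 ± 0.34 in clone AI845670, lower on all 4 arrays, and -0.89 ± 1.58 in clone C85317 from spots of 25 pixels. For 6 of these 8 clones the interval lay within 2-fold. Stxbp3 was not analysed here.

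Complexins bind the assembled SNARE complex. Cplx1, a complexin of neurons, had the lowest mean ratio of all members. Its clone BF458874 had intensities of 61.5, 275, 131 and 444 in PACAP RNA, against 619.8, 626, 1143 and 874 in control RNA. The ratios were -3.55, -2.10, -4.00 and 0.23, so that repeats 1 to 3 were all low and repeat 4 was not. The mean of -2.36 ± 1.90 had an adjusted p of 0.454 by limma. Its spots had a median area of 11.5 pixels, and over all clones those with areas under 20 pixels had a median ratio of -1.22. From the deposited log2 ratios the value was -4.53 with an adjusted p of 0.0317, the single member call in any setting. Over all settings the adjusted p of this clone ran from 0.0317 to 0.867, and 539 clones of the array were called from the deposited ratios.

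Cplx2, the complexin of chromaffin cells known from mouse work, had 5 clones with means of -0.15, -0.07, -0.00, 0.47 and 0.79. Clone AW049173 was higher on all 4 arrays, with 0.38, 1.41, 0.65 and 0.70 (0.79 ± 0.44, limma adjusted p = 0.454). Its title is natriuretic peptide receptor 1, and that of AI844051, at 0.47 ± 0.64, is an Ena-vasodilator stimulated phosphoprotein. The 3 clones with no title naming another gene had means of -0.15 to -0.00. Cplx3 and Cplx4 are complexins known from the retina. Cplx3 had 0.17 ± 0.38. Cplx4 clone BE954098 had intensities of 566, 313, 148 and 399 in PACAP RNA, against 289.7, 83.4, 93.7 and 707 in control RNA, and ratios of 0.41, 1.97, 1.02 and 0.37 (0.94 ± 0.75, limma adjusted p = 0.454). It was higher on all 4 arrays, with control signal above background on 2.

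**Figure D4:**
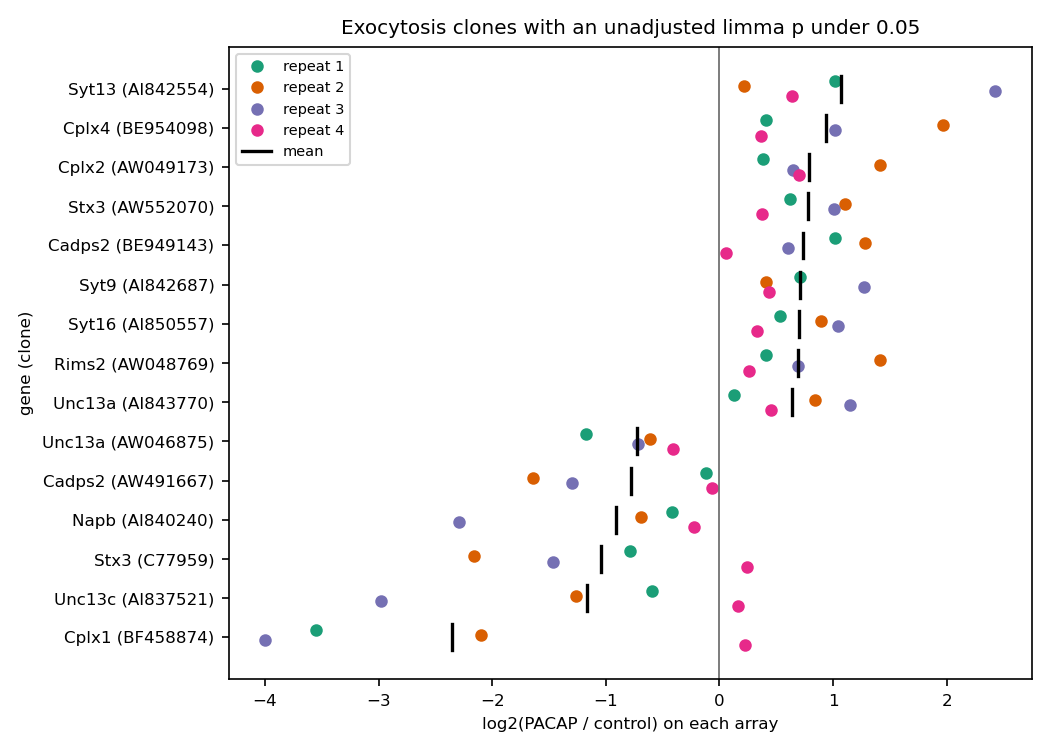
Normalised log2(PACAP / control) on each array (horizontal axis) for the 15 exocytosis clones with an unadjusted limma p under 0.05 (vertical axis, gene and clone); points are the 4 repeats by colour and black bars the means. The 9 clones with positive means lie above 0 on all 4 arrays, whereas Cplx1, Unc13c and Stx3 clone C77959 are below 0 on repeats 1 to 3 and above it on repeat 4.

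Synaptotagmins are the calcium sensors of the family and, in several members, proteins that bind membranes without calcium. Their 27 clones of 13 genes had a median of -0.00, with 13 higher and 14 lower. At an unadjusted p under 0.05, 3 were higher and 0 lower, against 3.92% and 6.46% of all clones tested. Syt1, the fast calcium sensor of granules and synaptic vesicles, had -0.02 ± 0.53, 0.02 ± 0.29 and 0.55 ± 0.46 in 3 clones all titled synaptotagmin 1. Clone AI852915 had 1196, 2031, 814 and 1305 in PACAP RNA, against 828, 536, 327 and 3050.2 in control RNA, and ratios of -0.35, 0.24, 0.27 and -0.06. Clone AI836797 was higher on all 4 arrays, with 0.31, 1.13, 0.67 and 0.09 and a limma adjusted p of 0.493. Syt7, the slower sensor of high calcium affinity that chromaffin granules also carry, had ratios of -0.50, -0.42, -0.39 and -0.21 in clone AI854566. These 4 values were lower with the narrow spread of -0.38 ± 0.12, yet the adjusted p was 0.553 by limma, and the mean turned to 0.23 with median centring and 0.85 from the deposited log2 ratios. The other Syt7 clone had -0.00 ± 0.64.

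Syt9, a calcium sensor of neuroendocrine granules, had 0.71, 0.41, 1.27 and 0.44 in clone AI842687 (0.71 ± 0.40, limma adjusted p = 0.454) and 0.14 ± 0.28 in clone AW490443. Control signal was above background on 1 array for the first clone and on 2 for the second. The average over both was 0.42 ± 0.11, with an adjusted p of 0.509. Syt5 had 0.50 ± 0.53 in a clone titled synaptotagmin 9, and older records use these names for each other's gene. Syt13 and Syt11 lack the calcium-binding residues of Syt1. Syt13 clone AI842554 had intensities of 862, 382, 181 and 533 in PACAP RNA, against 276, 220.4, 47.4 and 791 in control RNA, and ratios of 1.02, 0.22, 2.43 and 0.64. Its mean of 1.07 ± 0.96 was the highest of the members (limma adjusted p = 0.454), while the other Syt13 clones had -0.01 ± 0.71 and 0.34 ± 0.40. Syt11 had 5 clones, 4 negative at -0.60, -0.48, -0.22 and -0.17 and 1 positive at 0.56. The lowest of them, AI851970, had a limma adjusted p of 0.480 and is titled phosphatidic acid phosphatase.

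Syt16, a synaptotagmin whose role is little known, had 0.53, 0.90, 1.04 and 0.33 in clone AI850557 (0.70 ± 0.33, limma adjusted p = 0.454), with control signal above background on 1 array, and -0.06 ± 0.85 in its other clone. Syt4, a synaptotagmin of neuroendocrine granules, had -0.17 ± 1.10 and -0.01 ± 0.99, and its values on the 4 arrays ran from -1.74 to 1.23. Syt2, the close relative of Syt1, had -0.05 ± 0.63, 0.23 ± 0.84 and 0.31 ± 0.44. Sytl4 (granuphilin), which tethers granules to the membrane through Rab27, had 0.18 ± 0.56. Syt3, Syt6 and Syt17 had 0.46 ± 0.63, -0.29 ± 0.39 and -0.54 ± 0.84.

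The priming and active zone proteins had the lowest median of the 9 roles, -0.31 over 15 clones of 7 genes. With clones of 1 gene counted separately, 4 were higher and 11 lower. Averages over the clones of a gene ran from -0.68 (Unc13c) to 0.23 (Unc13b). At an unadjusted p under 0.05 the clones counted 3 higher and 3 lower, against 3.92% and 6.46% of all clones tested. Unc13a, a Munc13 protein that opens syntaxin for assembly, had 3 clones with different outcomes. Clone AI843770 had 0.13, 0.84, 1.15 and 0.46 (0.64 ± 0.44, limma adjusted p = 0.469), clone AW122001 had -0.01 ± 0.28, and clone AW046875 had -1.18, -0.61, -0.71 and -0.40 (-0.73 ± 0.33, limma adjusted p = 0.454) from spots of 59 pixels. The first was higher and the last lower on every array. Unc13b had 0.23 ± 0.68. Unc13c, a Munc13 of the cerebellum, had -0.59, -1.26, -2.98 and 0.16 in clone AI837521 (-1.17 ± 1.34, limma adjusted p = 0.464) from spots of 38.5 pixels, and -0.19 ± 0.77 in clone AU019458.

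Cadps (CAPS1), the priming factor first found through dense-core granule release, had intensities of 337, 265, 90.6 and 285 in PACAP RNA, against 246, 323, 149 and 694 in control RNA. Its ratios were 0.07, -0.87, -0.35 and -0.11 (-0.31 ± 0.41). Its relative Cadps2 had 4 clones at -0.78, -0.39, -0.15 and 0.74. Clone BE949143, with control signal above background on 1 array, had 1.01, 1.28, 0.60 and 0.06 (limma adjusted p = 0.455). Clone AW491667, with a title that resembles a zinc finger protein, had -0.12, -1.64, -1.30 and -0.06 (limma adjusted p = 0.476). Each of these was on 1 side of 0 on all 4 arrays, and their sides were opposite. Rims2 (RIM2), a scaffold that binds Rab3 and Munc13, had 704, 759, 429.9 and 626 in PACAP RNA of clone AW048769, against 343, 167, 175 and 1207 in control RNA. Its ratios were 0.41, 1.41, 0.69 and 0.26 (0.69 ± 0.51, limma adjusted p = 0.464), and -0.37 was the mean from the deposited log2 ratios. The second Rims2 clone had 0.06, 1.06, -2.34 and -0.20 (-0.36 ± 1.43). Rims3 had -0.50 ± 0.62 and -0.31 ± 0.45. Rims1 and Unc13d were not analysed here.

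Among the vesicle membrane proteins, Syp (synaptophysin), which binds Vamp2, had -0.01 ± 0.46 and 0.13 ± 0.31. Sv2a and Sv2b are transporter-like glycoproteins of synaptic vesicles and granules. Sv2a had -0.30 ± 0.45 and -0.26 ± 0.36, both clones titled as synaptic vesicle glycoprotein. Sv2b had 0.14 ± 0.17 in clone AI852232, higher on all 4 arrays by at most 0.38 but at -2.31 with the deposited log2 ratios, and 0.71 ± 1.02 in clone AI850768. Its remaining clone, AI842056, was not well above background in control RNA on any array and carries no fold or direction. Sv2c was not analysed here.

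Clones of the same gene often disagreed, among the members as over the array. Of 34 member genes with several clones, 14 (41.2%) had all clone means on 1 side of 0, 5 higher and 9 lower, and of 5935 such genes on the array 2443 (41.2%) did, 1411 higher and 1032 lower. With 3 or more clones, 4 of 17 member genes (23.5%) did, namely Nsf, Snap25 and Sv2b on the positive side and Stx8 on the negative, against 24.9% of such genes on the array. Sv2b is counted there only through the clone without control signal above background.

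Small spots moved with the negative ratios. Of 8 member clones with a median spot area under 60 pixels, 7 had negative means, with a median of -0.74, and 3 of the 6 lower clones at an unadjusted p under 0.05 were among them (Cplx1, Unc13c and Unc13a). Of 107 member clones at 60 pixels or more, 54 were higher and 53 lower, with a median of 0.00. At an unadjusted p under 0.05 these counted 9 higher and 3 lower, against 1376 and 1171 of 31992 such clones over the array. Over all clones tested, 2920 of 3118 with areas under 60 pixels were lower, with a median of -0.74, against 0.03 for those of larger area. Of these 3118, 1098 were lower and 2 higher at an unadjusted p under 0.05. The part of spot area in these ratios was not tested.

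**Figure D5:**
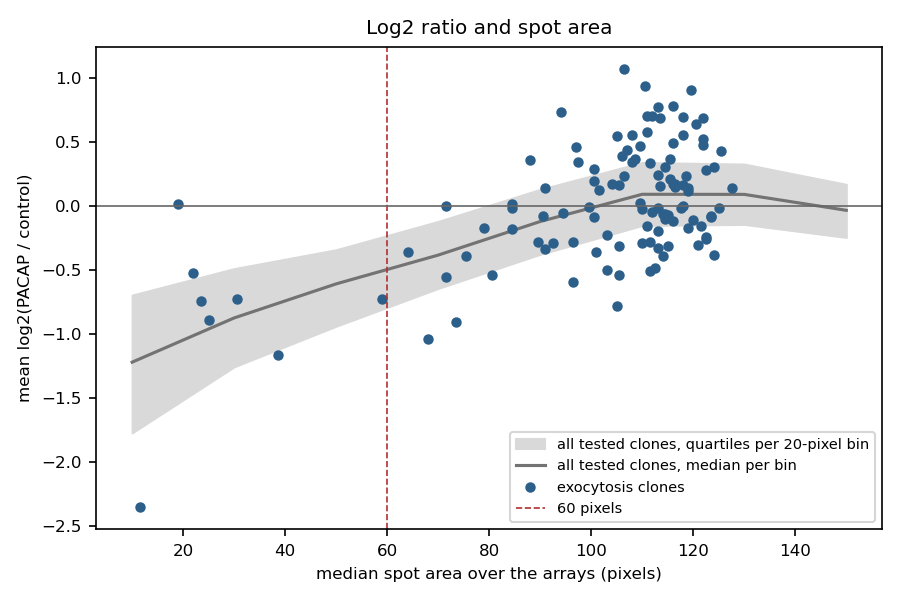
Mean log2(PACAP / control) (vertical axis) against the median spot area over the arrays in pixels (horizontal axis) for the 115 exocytosis clones (points), with the median (line) and quartiles (grey) of all tested clones in bins of 20 pixels; bins of under 20 clones are not drawn. Clones left of the dashed line at 60 pixels had a median of -0.74, against 0.00 for exocytosis clones to the right of it.

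Other genes of vesicle traffic and exocytosis had ratios on both sides of 0 as well. Of 91 further names (Rab3 and Rab27 GTPases, exocyst subunits, synapsins, tethers, Golgi SNAREs and scaffolds), 76 were measured, each by the clone of highest mean brightness, with a median of 0.01, 39 higher and 37 lower. At an unadjusted p under 0.05 they counted 2 higher and 3 lower, against 3.92% and 6.46% of all clones tested. An adjusted p under 0.05 was found for 0. The higher ones were Exoc6, an exocyst subunit, at 0.87 ± 0.35 (n = 3), and Ppfia1, the scaffold liprin-alpha, with 0.79, 0.61, 1.16 and 0.17 (0.68 ± 0.41). The lower ones were Synpr (synaptoporin) at -1.28 ± 0.88 (n = 3), Rab27b, a granule GTPase, at -0.90 ± 0.96, and Rab3d, another, with -0.80, -0.47, -0.72 and -0.52 (-0.63 ± 0.16). All 3 lower ones came from spots under 60 pixels, with median areas of 38, 25 and 54. Next by p were Nlgn1, an adhesion protein of synapses, at 0.56 ± 0.65, the scaffold Lin7c at 0.70 ± 0.97 and the Golgi SNARE Bet1l at -0.69 ± 0.90.

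The chromaffin markers include granule contents such as the chromogranins, but also enzymes and a transporter. Each by the clone of highest mean brightness, the 12 measured genes had a median of 0.22 and a range of -0.50 to 1.84. Of these, 8 were higher and 4 lower. At an unadjusted p under 0.05, 3 of them were higher and 0 lower, against 3.92% and 6.46% of all clones tested. The adjusted threshold was passed by 0. The 3 higher ones were Penk, the enkephalin precursor, at 0.86 ± 0.35, Chgb (chromogranin B) at 0.71 ± 0.56, and Scg2 (secretogranin II) at 1.84 ± 0.84. The Scg2 clone is titled patched homolog and had control signal above background on 2 arrays. Chga (chromogranin A) had -0.50 ± 0.14 and Pam -0.38 ± 0.27, both lower on all 4 arrays. The other negative means were -0.36 ± 0.51 for Ddc and -0.31 ± 0.40 for Slc18a1. The marker genes Dbh, Pnmt, Slc18a2, Pcsk1 and Pcsk2 were not analysed here.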

How the data were processed

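Total RNA of PACAP-treated (Cy5) and control (Cy3) cattle chromaffin cells was hybridised to 4 arrays, per the labels. The deposited intensity of a spot already had its local background taken off (checked from total intensity and spot area), so no further background correction was made. The scanner tables also hold a deposited ratio, Cy5 over Cy3 divided by 1 calibration factor per array, and a quality score and spot area, per the file headers. A series table with log2 values was also deposited. Its scale and its direction, PACAP over control, were found by recomputing it: the background was taken off again, values under 1 were set to 1, and the log2 ratio was reduced by that of the array's factor (1.69, 1.97, 1.53 and 0.432 on repeats 1 to 4). It was not centred, since its columns have medians of 4.67, 5.51, 4.25 and -0.38. Not given in the sources used here are the image analysis program and the reason for that second subtraction.

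With a floor of 1 on each intensity, log2(Cy5 / Cy3) was normalised by global loess within each array (limma 3.58.1, R 4.3.3). Spots of no area, blanks and other plates had weight 0 and were left out. Spots of 1 clone were averaged, and a clone was tested where either channel exceeded 2 background SD on at least 3 of 4 arrays. The mean ratio was tested against 0 with limma in a 2-sided fit with an intercept only, and p was adjusted by Benjamini-Hochberg over all 35110 clones tested. For averages over the clones of a gene the adjustment was over 24837 units, with each clone lacking a gene symbol as its own unit. The smallest 2-sided exact sign-flip p of 4 arrays is 0.125, so no such test was used. A clone without a value on an array was fitted on the others. The fit was tested on simulated data. The number of arrays limits the precision.

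Gene symbols came from the platform annotation of the series table, joined to spots by plate position and kept if the recomputed ratio lay within 0.1 log2 in the median over arrays. That annotation can be old, and for 7 member clones the scanner table's title names another gene. No probe sequence or genome build is given in the sources used here, so no sequences or positions are shown. Clones named in the text are the 8 of smallest p in each direction, core release genes wherever measured, genes with several clones, 4 genes a direction, by smallest p, of a list of other exocytosis genes, and chromaffin markers; the others are given for completeness of their role. Members and lists were chosen with earlier results of these data known. Other settings were print-tip loess, median centring, scaling between arrays, normexp with offset 50, a floor of 50, the deposited log2 ratios centred by array, other filters, trend and robust moderation, the mean over the clones of a gene, and each array left out. Tables and plots were made in Python 3.11.15 (matplotlib 3.10.9, scipy 1.17.1, numpy 2.4.6, pandas 2.3.3).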

Additional observations from a re-analysis of the deposited data

Results flagged for a closer look

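Of the 110 exocytosis clones with a value on 4 arrays, 6 had 1 array far from the other 3 by Dixon's ratio at its 95% critical value, where chance gives about 1 in 20. Syt11 clone AW123163 had -1.40 on repeat 4 and -0.19 to -0.15 on the others, and Stx17 clone AW048351 had -0.87 on repeat 4 and 0.44 to 0.59 on the others. On repeat 2, Cplx2 clone AW494629 had -0.73 (others 0.08 to 0.19), Syt13 clone AI844400 had -1.07 (others 0.23 to 0.48), and Syt2 clone AW494096 had 0.96 (others 0.06 to 0.10). Stx7 clone AW555574 had 1.499 on repeat 3 and 0.15 to 0.24 on the others, so most of its mean of 0.53 came from that array.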

How the results depend on the processing

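No member clone had an adjusted p under 0.05 in any setting but 1: from the deposited log2 ratios 1 did, the Cplx1 clone, together with 539 clones of the array. At an unadjusted p under 0.05, the main counts of 9 higher and 6 lower became 2 higher and 12 lower from the deposited log2 ratios (1.20% and 11.5% of all clones), 3 lower with print-tip loess (6.53%), 3 lower without spots under 60 pixels (of 106 clones; 4.71%), 0 lower with trend and robust moderation (0.0085%), 5 higher with both channels above background (of 64 clones; 3.74%), and 1 higher and 1 lower with the mean over the clones of a gene (of 54 genes; 3.31% and 6.65%), where the median was 0.067. The array shares given for the mean over the clones of a gene are over 24837 units, with each clone lacking a gene symbol as its own unit. With median centring, members counted 9 higher and 9 lower, against 7.68% and 9.69% of all clones. Leaving out 1 array at a time gave 2 to 11 higher, 2 to 10 lower, 0 by adjusted p, and a median of -0.00 to 0.02. The shares over all clones then ran from 1.99% to 4.87% higher and from 3.23% to 9.79% lower. Without the 7 clones whose title names another gene, a setting chosen after seeing the data, 8 of 108 (7.41%) were higher and 5 (4.63%) lower. Over all clones the main fit had 3.92% and 6.46%. Of 31 clones with an unadjusted p under 0.05 or the same sign on all 4 arrays, 24 kept their sign in every setting. The 7 others turned to 0.081 (Napa AW537800) and 0.23 (Syt7 AI854566) with median centring, and from the deposited log2 ratios to 0.37 (Napa), 0.85 (Syt7), -0.37 (Rims2 AW048769), 1.81 (Stx5a AW555342), -0.16 (Stx7 AW555574), -0.77 (Vamp3 AW536500) and -2.31 (Sv2b AI852232). The cause was not tested. Of the 84 other clones, 55 changed sign in at least 1 setting. These counts do not compare robustness, because the 31 were picked by p or sign on the same arrays. A clone with the same sign on all 4 arrays cannot change it when 1 array is left out. The settings without the filter on dim spots, with both channels above background and with trend and robust moderation reuse the main means, so no sign can change there. Control signal near background limits the ratios of the 35 clones above it on 2 arrays, the 13 on 1 and the 1 on none. Each array already pairs PACAP and control RNA of the same repeat, so the fit on the ratios was within repeats and no further pairing was modelled.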
